A study of Homo sapiens with 6 samples.

Results

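AluY elements are the youngest large branch of the Alu family, and their transcripts were measured here in SW480, a cell line from a human adenocarcinoma of the colon. Members were all transposable element (TE) loci in the deposited tables whose repeat name begins with AluY and that were listed in at least 1 of the 6 libraries. This gave 30758 AluY loci of 728165 TE loci in all, in 25 named subfamilies, of which the one called AluY held 22935. Both groups were SW480 cells transduced with lentivirus and kept under antibiotic selection. The control cells expressed the fluorescent protein Clover from pLENTI CMV Clover (3 libraries), and the others expressed ZC3H18, a factor of nuclear RNA decay, in truncated form from pLENTI CMV Z18trunc (3 libraries). In both, the viral CMV promoter drove the construct, the cells' own ZC3H18 gene was left in place, and polyadenylated RNA was selected before stranded libraries were made.

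Alu elements are short interspersed elements (SINEs) that arose in primates from the RNA of the signal recognition particle. A free Alu transcript is made by RNA polymerase III from an internal promoter, the A box and B box, and ends in an A-rich tail that the element itself encodes. Alu copies encode no protein and move with the machinery of LINE-1. Most Alu sequence in polyadenylated RNA is carried inside longer RNA polymerase II transcripts, in introns and 3′ untranslated regions (UTRs), where the copy is read on its own strand or on the opposite strand. Copies in opposite orientation within a transcript can pair into double-stranded RNA. The subfamilies AluYa5 and AluYb8 hold most of the copies that have moved recently, so their members differ from each other at few bases and share reads.

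Aligned fragments ranged from 18226033 to 22463310 per library. Counts are given as CPM, counts per 1000000 aligned fragments. Where no count was found, up to 3 counts cannot be told from 0, which is 0.134 to 0.165 CPM by library (counting error only). The TPM of ZC3H18 in Clover averaged 57.2 ± 5.39, while Z18trunc libraries averaged 763 ± 31.2 (SD over 3 libraries), or 3.72 higher on the log2 scale (SE 0.09; adjusted p in limma = 3.2e-05), in reads of the endogenous gene and the construct together. All TE counts of both strands together were 47022 ± 1600.5 CPM (SD, n = 3) in Clover and 53253 ± 2914 CPM (SD, n = 3) in Z18trunc, with no overlap between groups (log2 change 0.18). Of 10 colon epithelial markers, 7 had a mean of at least 1 TPM, led by KRT18, KRT8 and KRT19, while CDX1, CEACAM5 and LGR5 were at 0 in all 6 libraries. Of 8 markers of other cell types, the leukocyte marker PTPRC and the endothelial marker PECAM1 were at 0 in all 6, COL1A2 and VWF stayed under 1 TPM, and CD68, PMEL, COL1A1 and MITF averaged 1.35 to 3.82 TPM in either group, with 0 of these 4 past an unadjusted p of 0.05 in limma. Since the RNA is from bulk cultures, a change in cell makeup and a change in RNA per cell cannot be told apart.

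The letters of the copies were searched in the reference genome (hg38), to which all positions refer, counted from 1. The A box, the B box (GATCGANNC, or GTTCGANNC as in older Alu branches) and the GCAGTCC that Yb branches hold in tandem repeat were looked for on the element's own strand. Of the 7 copies named below for own-strand counts that lie in introns or outside genes, chromosome 8 aside, only the AluYb8 copy downstream of LINC01362 held letter-perfect matches to both boxes, and it held 23 CG dinucleotides, against 6 in the copy in TIMM23B. Over all 30758 listed loci, 76.4% held the A box letters, 56.8% the B box letters of AluY and 46.6% an A box with either form of the B box. AluYb8 and AluYa5 kept them more often, with both boxes in 83.2% of 1157 and 84.2% of 1687 copies. The Yb stretch was found in 83.0% of AluYb8 and 88.4% of 86 AluYb9 copies and in 2 of all other listed copies, so names and letters went together. The median copy was 302 bases long and held 14 CG dinucleotides. A poly(A) signal hexamer (AATAAA) stood on the own strand of 13.1% of listed loci and of 12.5% of the 345 tested loci, and its reverse complement (TTTATT) was in 11 loci. All motifs were searched on the element's own strand unless stated, and a match is a match of letters only.

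Counts on the element's own strand were found at 17345 of the 30758 loci, on the opposite strand at 15829 and on both at 2416. Most were near the limit of detection. Of the 17345 loci, 10224 (58.9%) had own-strand counts in only 1 of the 6 libraries and 733 (4.23%) in all 6. A total of at most 1 estimated count over all libraries was found at 54.4%. The loci with at least 30 counts over the 6 libraries, which could be tested, numbered 345 (1.99%) and held 50.5% of own-strand counts. The 20 most abundant loci alone held 21.4%.

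Counts differed widely by place in genes. AluY copies in a 3′ UTR of a gene on the same strand were 404 of the 30758 listed loci, yet they held 38.1% of own-strand counts and 138 of the 345 tested loci. Copies in introns of same-strand genes held 35.7% (88 tested), copies outside genes 16.1% (59 tested), copies that overlap solely other-strand genes 5.24% (23 tested) and copies in other same-strand exons 4.90% (37 tested). The 8 copies with the highest own-strand CPM all lay in 3′ UTRs.

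Summed over all own-strand loci, AluY was 652, 742 and 669 CPM in Clover and 724, 725 and 784 CPM in Z18trunc. The Z18trunc libraries lay above 2 of the 3 Clover libraries and the second Clover library lay among them. The log2 change was 0.11 (exact two-sided permutation p = 0.3, where 3 against 3 libraries cannot go below 0.1). Uniquely mapped counts alone gave 488 ± 37.4 CPM (SD, n = 3) and 528 ± 7.62 CPM (SD, n = 3), again with overlap (exact permutation p = 0.3). Relative to all TE counts of both strands the sum turned to -0.07 (exact permutation p = 0.5).

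On the opposite strand, where AluY sequence is read as its complement, levels were 769, 758 and 713 CPM in Clover and 799, 835 and 898 CPM in Z18trunc. Here every Z18trunc library lay above every Clover library, with a log2 change of 0.18 (exact permutation p = 0.1, the smallest possible). Uniquely mapped opposite-strand counts also did not overlap, at 508 ± 15.9 and 585 ± 24.0 CPM (SD, n = 3 each). The log2 ratio of own to opposite strand averaged -0.12 ± 0.11 for Clover, while Z18trunc averaged -0.18 ± 0.03 (SD over 3 libraries), and the difference of -0.06 was within the spread (exact permutation p = 0.4). The strands were thus not shown to differ in their change. The opposite-strand log2 change of 0.18 was close to that of all TE counts of both strands together, also 0.18. The median over all opposite-strand loci tested was 0.17. No rise of AluY beyond that of TEs as a whole was thus shown.

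**Figure D1:**
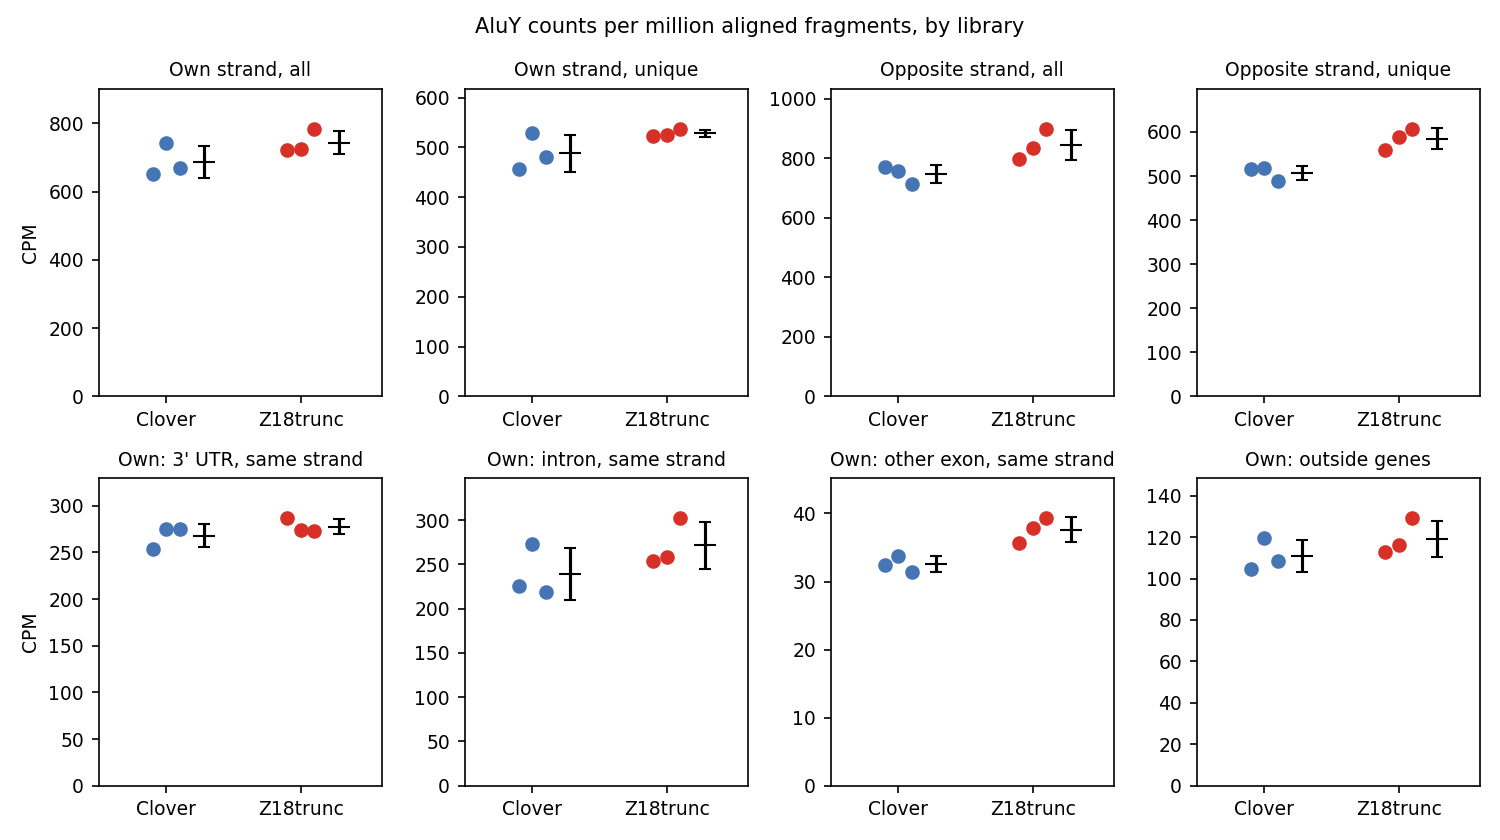
AluY counts in CPM for each library (points; Clover blue, Z18trunc red), with the mean and SD of 3 libraries as a black bar; the upper row gives sums by strand for all and uniquely mapped counts, the lower row own-strand sums by place in genes, each axis starting at 0. The groups overlap on the own strand, except for copies in other exons, and do not overlap on the opposite strand (769, 758 and 713 against 799, 835 and 898 CPM).

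AluY was also set against the rest of its class. Other SINEs on their own strand were 11139 ± 402 CPM in Clover and 12052 ± 495 CPM in Z18trunc (SD, n = 3 each), without overlap (log2 change 0.11, exact permutation p = 0.1, the smallest possible). AluY was 5.81 ± 0.213% and 5.82 ± 0.099% of own-strand SINE counts (SD, n = 3 each), and the log2 ratio of AluY to other SINEs differed by 0.002 (exact permutation p = 1), a value whose sign changed with uniquely mapped counts (-0.009). The older branches AluS and AluJ had log2 changes of 0.11 and 0.13 (exact permutation p = 0.2 each).

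By place, copies in other exons of same-strand genes were the one own-strand group without overlap, at 32.4, 33.8 and 31.4 CPM in Clover and 35.7, 37.8 and 39.3 CPM in Z18trunc (log2 change 0.21, exact permutation p = 0.1). Copies in same-strand introns were 239 ± 29.8 and 271 ± 26.5 CPM (exact permutation p = 0.3; SD, n = 3 each). Copies in 3′ UTRs, the place with the highest share of counts, were 268 ± 12.5 and 278 ± 7.63 CPM (exact permutation p = 0.6). Copies outside genes were 111 ± 7.61 and 119 ± 8.68 CPM (exact permutation p = 0.3). None of these differences can pass a threshold of 0.05 with 3 libraries a group. On the opposite strand, copies were grouped by gene spans alone, as outside genes, on the strand of a gene or against it. Each group had higher values in all 3 Z18trunc libraries than in any Clover library. The log2 changes were 0.17, 0.15 and 0.18 (exact permutation p = 0.1 each). These are near the log2 change of 0.18 of all TE counts of both strands together.

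The share of a copy's reads that could be placed differed with its divergence, a measure of its age. Each table lists uniquely mapped counts, all reads that touch a locus, and an estimated count in which shared fragments were divided among loci. At 82.9% of 32441 own-strand AluY entries the estimated count equalled the unique count plus 1 for every 2 further reads, within 0.011, which is the value if every read at the locus is credited to it. For Clover the unique share averaged 71.0 ± 0.975%, and for Z18trunc 71.0 ± 2.20% (SD over 3 libraries). Read by that rule, a low unique share was not the same as sharing. The rule was inferred from the counts and did not hold at the other entries. The credited share, the estimated count over the count if every read were credited, was 94.8 ± 0.816% and 93.6 ± 1.33% (exact permutation p = 0.3).

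The credited share was lowest in the youngest copies. Among 2736 own-strand loci with under 20 substitutions per 1000 bases the credited share was 43.8%, and from 20 to 50 substitutions (2376 loci) it was 96.8%, with 98.7% (8705 loci) and 98.1% (3528 loci) in the older bins from 50 to 80 and above. Counts per locus were 1.09 in the youngest bin and 6.02, 5.39 and 6.72 in the others. The log2 changes by bin, from youngest to oldest, were 0.04, 0.04, 0.12 and 0.17 (exact permutation p = 0.7, 0.8, 0.3 and 0.2), with overlap between groups in every bin. Among the 345 tested loci, the 27 with another listed copy within 5 edits had credited shares from 35.0% to 136%, the 114 with a nearest copy at 6 to 20 edits had 92.3% to 102%, and the 203 at 21 to 60 edits had 97.5% to 102%. A share over 100% means that the locus received more than its own reads would give by this measure, for which no reason was found.

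AluYa5, with a median divergence of 7 substitutions per 1000 bases, and AluYb8, with 13, had credited shares of 47.4% and 45.5%, against 98.2% for the subfamily AluY. They also lay elsewhere: 45.6% of listed AluYa5 and 40.8% of listed AluYb8 copies stood outside genes, against 23.8% for the subfamily AluY. Of their own-strand counts, 33.4%, 30.8% and 14.8% came from outside genes in the same order. A single copy held 17.7% of the AluYb8 counts, the one downstream of LINC01362. The top copy held 22.8% in AluYh3, 17.7% in AluYb9, 16.3% in AluYc, 9.79% in AluYm1, 7.38% in AluYa5 and 2.57% in AluY.

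In the edgeR test of subfamily sums, 0 of 23 AluY subfamilies passed an adjusted p of 0.05, against 1.89% of all 898 subfamilies tested. At an unadjusted p under 0.05 there was 1 (AluYc), against 24.6% of all subfamilies that were higher at that level, and DESeq2 with its own size factors also called 0. The subfamily AluY was 582 ± 41.2 CPM in Clover and 631 ± 21.8 CPM in Z18trunc (log2 change 0.12, SE 0.06, edgeR adjusted p = 0.257). AluYc was 14.3, 15.1 and 12.3 CPM in Clover and 16.7, 14.6 and 19.97 CPM in Z18trunc, so its groups overlapped, and its log2 change was 0.30 (SE 0.13; adjusted p in edgeR = 0.167). AluYm1 was 18.6 ± 0.730 and 20.96 ± 2.70 CPM (edgeR adjusted p = 0.336).

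Among the young subfamilies, AluYa5 was 7.36, 11.4 and 9.51 CPM in Clover and 8.61, 10.2 and 10.4 CPM in Z18trunc. AluYb8 was 12.2, 12.8 and 10.8 CPM in Clover and 11.7, 11.4 and 12.1 CPM in Z18trunc. Both had overlapping groups, with log2 changes of 0.05 (SE 0.15) and -0.02 (SE 0.12), whose edgeR adjusted p-values were 0.859 and 0.909. AluYb9 was at most 1.08 CPM in each library (log2 change 0.35, SE 0.34, edgeR adjusted p = 0.517), and AluYh3 was 9.99 ± 0.439 and 10.6 ± 1.152 CPM (edgeR adjusted p = 0.662; SD, n = 3 each).

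On the opposite strand AluYc passed, as 1 of 21 AluY subfamilies tested there, against 12.6% of all 905 opposite-strand subfamilies. The median log2 change over those 905 was 0.25, with 803 positive, and no opposite-strand fit with other scaling was run. AluYc was 13.0, 12.8 and 12.1 CPM in Clover and 14.3, 16.4 and 18.4 CPM in Z18trunc, without overlap (log2 change 0.37, SE 0.13, edgeR adjusted p = 0.0364). Its copy with the highest opposite-strand count, in GTF2H3, held 7.58% of the sum and had overlapping groups (log2 change 0.05). The next, in KLC1, held 7.30% and had 0.712, 0.680 and 1.02 CPM in Clover and 1.16, 1.26 and 1.52 CPM in Z18trunc, without overlap (log2 change 0.71, edgeR adjusted p = 0.498). These opposite-strand items were chosen after their values were seen.

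**Figure D2:**
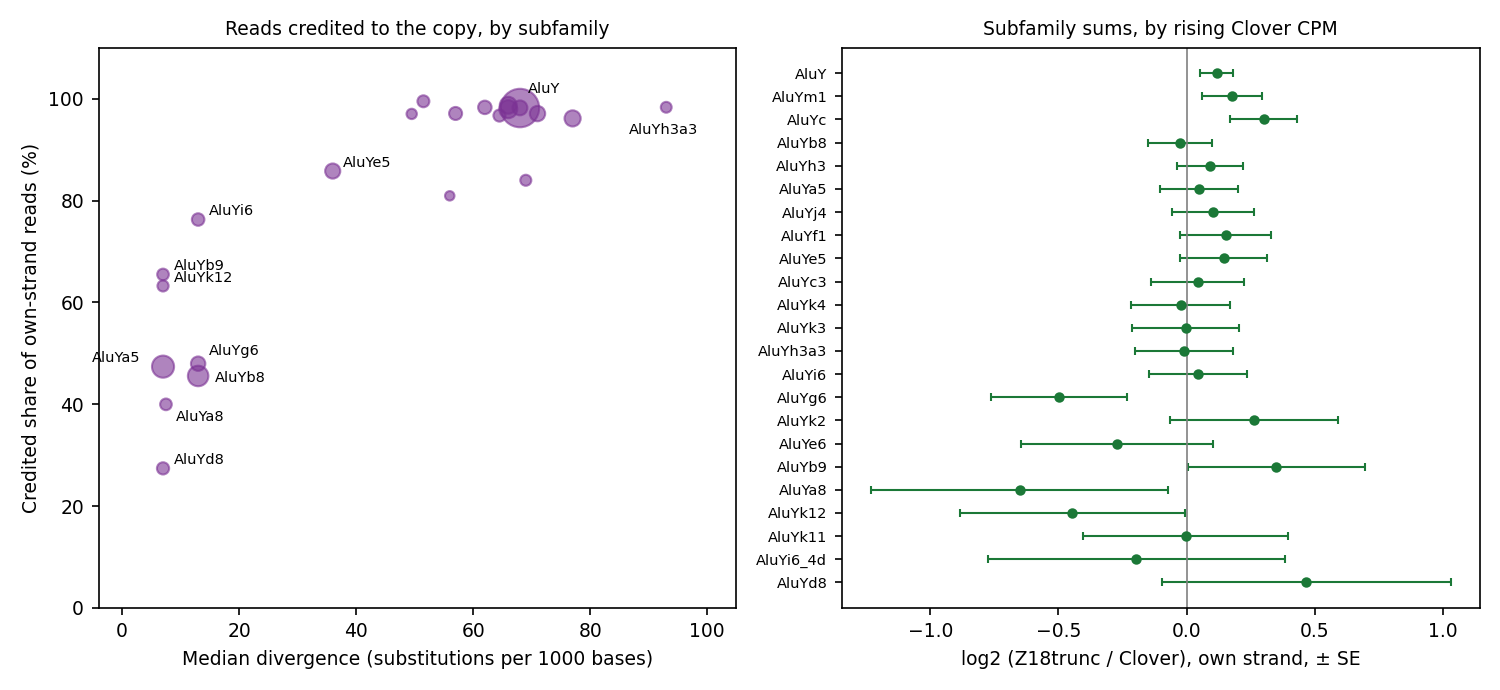
Left, the share of own-strand reads credited to the locus (%) against median divergence (substitutions per 1000 bases) for 23 tested AluY subfamilies, with point size rising with the number of loci; right, log2 change of the own-strand sum with its SE from edgeR, ordered by Clover CPM. Subfamilies with a median of 7 to 13 substitutions had credited shares of at most 76.3%, the others at least 80.9%, and no subfamily passed an adjusted p of 0.05.

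Single loci were tested next. Of 345 AluY loci, 0 passed an adjusted p of 0.05 in edgeR, against 0.201% of all 12453 loci (25 loci), and DESeq2 with its own size factors also called 0. At an unadjusted p under 0.05, 18 AluY loci (5.22%) were higher in Z18trunc and 6 (1.74%) lower, against 8.17% and 1.77% of all loci. DESeq2 gave 5 higher (1.45%) and 7 lower (2.03%), against 1.42% and 2.30% of all loci. The groups did not overlap at 34 loci (9.86%) higher in Z18trunc and 13 (3.77%) lower, against 12.0% and 3.64% of all loci. The median log2 change was 0.17 over the AluY loci and 0.17 over all loci, and 0.11 over 2789 AluS and 0.14 over 1206 AluJ loci. With uniquely mapped counts the medians were 0.095 over 233 AluY loci and 0.173 over all 8995 loci tested. At an unadjusted p under 0.05 in edgeR, 6 of these AluY loci (2.58%) were higher and 6 (2.58%) lower. The shares over all loci were 8.07% and 1.90%. With TMM scaling, which centres the loci, the AluY median was -0.01, and p before adjustment was under 0.05 at 9 higher (2.61%) and 17 lower (4.93%) loci, against 3.89% and 4.57% of all loci.

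By place the medians were 0.15 in 3′ UTRs, 0.17 in same-strand introns, 0.32 in other same-strand exons, 0.07 in genes on the other strand and -0.01 outside genes. At the 245 tested same-strand loci whose host gene was also tested (232 genes), the log2 change of the copy and that of the host gene's TPM had the same sign at 142 (58.0%). The share was 61.8% in 3′ UTRs, 57.1% in introns and 43.3% in other exons. Of all 345 tested loci 207 had positive changes, as did 9042 of all 13300 genes. Many same signs would thus arise without a link between copy and host. Pearson's r across these loci was 0.27, a description across loci that share libraries and, in part, genes.

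**Figure D3:**
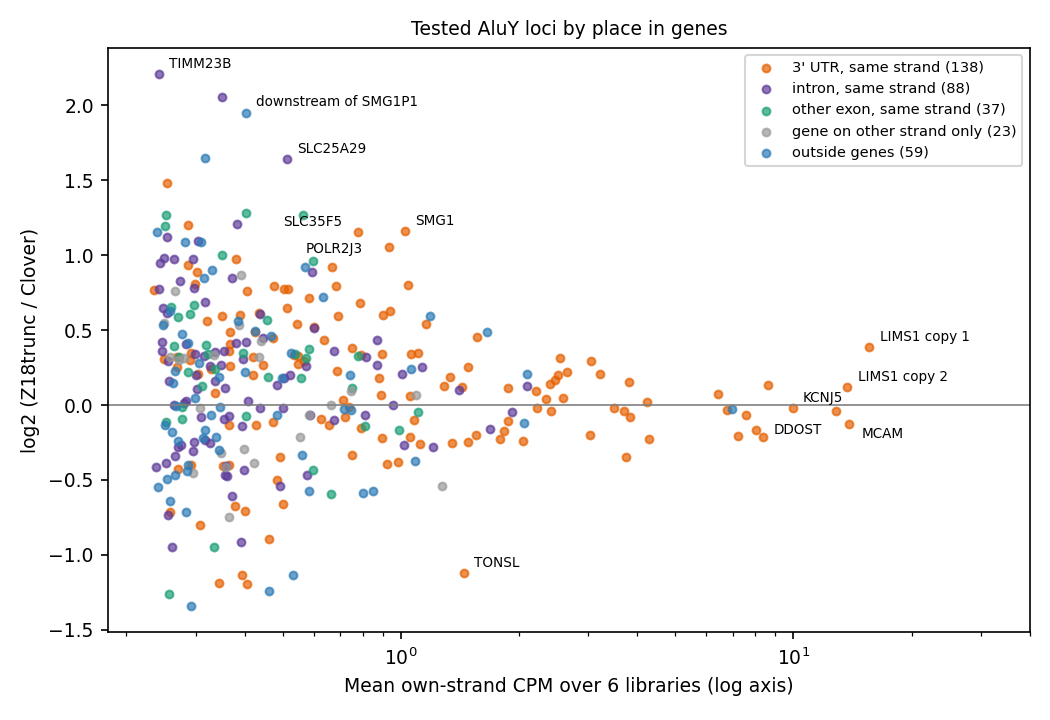
Log2 change (Z18trunc over Clover) of the 345 tested AluY loci against their mean own-strand CPM over 6 libraries on a log axis, coloured by place in genes, with the number of loci in brackets. The most abundant copies, in the 3′ UTRs of LIMS1, MCAM, DDOST and KCNJ5, lie between -0.12 and 0.39.

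The copy with the smallest p lay on chromosome 8 (144428784 to 144429088, minus strand) in the 3′ UTR of TONSL, which encodes a protein of replication fork repair. It had 1.34, 2.35 and 2.29 CPM in Clover and 0.935, 0.713 and 1.05 CPM in Z18trunc. All Z18trunc values lay below all Clover values, and its log2 change was -1.12 (SE 0.29; adjusted p in edgeR = 0.0951), which passed only without the first Clover library (log2 change -1.35, edgeR adjusted p = 0.0242). TONSL itself was 20.9 ± 0.499 and 20.3 ± 0.676 TPM (SD, n = 3 each).

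The next copies were higher in Z18trunc, at under 2 CPM. One in the 3′ UTR of SMG1, the kinase of nonsense-mediated decay (chr16:18807749-18808060, minus strand), had 0.846, 0.470 and 0.560 CPM in Clover and 1.29, 1.21 and 1.76 CPM in Z18trunc, without overlap (log2 change 1.16, SE 0.34, edgeR adjusted p = 0.181). SMG1 itself was 5.34 ± 1.08 and 8.30 ± 1.57 TPM (log2 change 0.56 on the log2(TPM + 1) scale, limma adjusted p = 0.0981). The copy downstream of SMG1P1, a pseudogene of SMG1, lay 11553 bases past the end of that pseudogene (chr16:22503773-22504068, plus strand). It had 0.240, 0.0857 and 0.177 CPM in Clover and 0.563, 0.472 and 0.875 CPM in Z18trunc (log2 change 1.95, SE 0.55, edgeR adjusted p = 0.157).

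No read mapped uniquely to the copy downstream of SMG1P1 in any library, its credited share was 121%, and another listed copy on chromosome 16 (21867116 to 21867411) lay 1 edit away. Its counts cannot be told apart from those of near-identical copies. A further copy with a near-duplicate lay in the 3′ UTR of POLR2J3 (chr7:102564681-102564990, minus strand), 1 edit from a copy in POLR2J2, with a unique share of 39.3% and 0.590 ± 0.116 and 1.28 ± 0.265 CPM (log2 change 1.05, SE 0.34, edgeR adjusted p = 0.262). With uniquely mapped counts its log2 change was 0.57. POLR2J3 itself was 63.7 ± 2.60 and 62.8 ± 4.51 TPM (log2 change -0.02, limma adjusted p = 0.886).

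The intron copy in SLC25A29 (chr14:100296596-100296896, minus strand), a mitochondrial carrier gene, had 0.238, 0.157 and 0.357 CPM in Clover and 0.713, 0.658 and 0.953 CPM in Z18trunc, without overlap (log2 change 1.64, SE 0.48, edgeR adjusted p = 0.193). SLC25A29 was 61.5 ± 1.72 and 56.5 ± 3.00 TPM (SD, n = 3 each), so the copy and its host gene differed in sign. The intron copy in TIMM23B (chr10:49968553-49968845, plus strand), a mitochondrial import gene, had 1.36, 2.52 and 1.33 counts in Clover and 14.5, 5.58 and 5 counts in Z18trunc (edgeR adjusted p = 0.274), and its nearest listed copy was 3 edits away. TIMM23B itself was 4.20 ± 0.129 and 5.63 ± 0.399 TPM (log2 change 0.35, limma adjusted p = 0.0773). An AluYe5 copy in the 3′ UTR of SLC35F5 (chr2:113712324-113712614, minus strand) had 0.712, 0.314 and 0.408 CPM in Clover and 1.43, 0.713 and 1.09 CPM in Z18trunc. Its lowest Z18trunc value lay just above its highest Clover value (log2 change 1.16, SE 0.39, edgeR adjusted p = 0.274).

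The most abundant AluY copy on the own strand was also among the 8 with the smallest p. It lies in the 3′ UTR of LIMS1 (chr2:108686045-108686338, plus strand), the gene of a focal adhesion adaptor protein. It had 12.9, 12.6 and 15.03 CPM in Clover and 16.7, 17.8 and 18.6 CPM in Z18trunc, without overlap (log2 change 0.39, SE 0.12, edgeR adjusted p = 0.248). LIMS1 was 107 ± 11.1 and 134 ± 5.14 TPM (log2 change 0.33, limma adjusted p = 0.0932). A neighbouring copy in the same UTR (chr2:108686490-108686790, plus strand) had 12.04, 12.7 and 14.7 CPM in Clover and 14.3, 12.7 and 15.8 CPM in Z18trunc, with overlap (log2 change 0.12, SE 0.13). The copies share a transcript and are not independent.

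The other 6 abundant copies lay in the 3′ UTRs of MCAM, DDOST, KCNJ5, PLEKHB2, CDT1 and CPT1A, and in all 6 the groups overlapped. MCAM encodes a cell adhesion molecule, and its copy (chr11:119308972-119309270, minus strand) had 14.4 ± 0.662 and 13.2 ± 1.19 CPM. The copy in DDOST, a subunit of the oligosaccharyltransferase, had 13.0 ± 1.37 and 12.7 ± 0.154 CPM and also overlaps the antisense gene PINK1-AS. The copy in KCNJ5, a potassium channel gene, had 10.0 ± 0.421 and 9.88 ± 1.67 CPM (SD, n = 3 each). For the copies in PLEKHB2, in the replication licensing factor CDT1 and in the carnitine transferase CPT1A the log2 changes were 0.13, -0.22 and -0.17, and edgeR adjusted p-values of all 6 ran from 0.662 to 0.982. Unique shares of these 6 copies were 71.0% to 79.2%, and each had a credited share of 100% or just above.

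Outside genes, the most abundant copy on the own strand was an AluY on chromosome 8 (125622075 to 125622363, minus strand). It lay 300160 bases from the nearest gene end upstream on its strand. It had 5.39, 7.24 and 8.51 CPM in Clover and 7.08, 7.11 and 6.48 CPM in Z18trunc, and the Z18trunc values all lay within the Clover range (log2 change -0.02, SE 0.16, edgeR adjusted p = 0.982). The AluYb8 copy downstream of LINC01362 (chr1:83242557-83242869, plus strand) lay 75742 bases past the end of that gene. It had 2.62, 2.93 and 0.255 CPM in Clover and 1.87, 2.69 and 2.22 CPM in Z18trunc. Clover library 3 stood far below the other 5, with 5 counts, 0 of them unique. The log2 change was 0.21 (SE 0.34), and -0.30 without that library.

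The AluY copy downstream of SEC14L4 (chr22:30487464-30487763, minus strand) starts 1143 bases past that gene and the AluYm1 copy downstream of TTC9C (chr11:62739148-62739443, plus strand) 512 bases past it, so reads that run beyond an annotated gene end could reach both, which was not tested. They had 2.15 ± 0.116 and 1.97 ± 0.270 CPM, and 1.39 ± 0.167 and 1.93 ± 0.462 CPM (SD, n = 3 each). The copy downstream of H2BC11 (chr6:27124821-27125113, minus strand) lay 7203 bases past the end of that gene. It had 1.20, 0.261 and 1.32 CPM in Clover and 1.20, 1.92 and 1.19 CPM in Z18trunc, with overlap (log2 change 0.59, SE 0.35, edgeR adjusted p = 0.606).

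**Figure D4:**
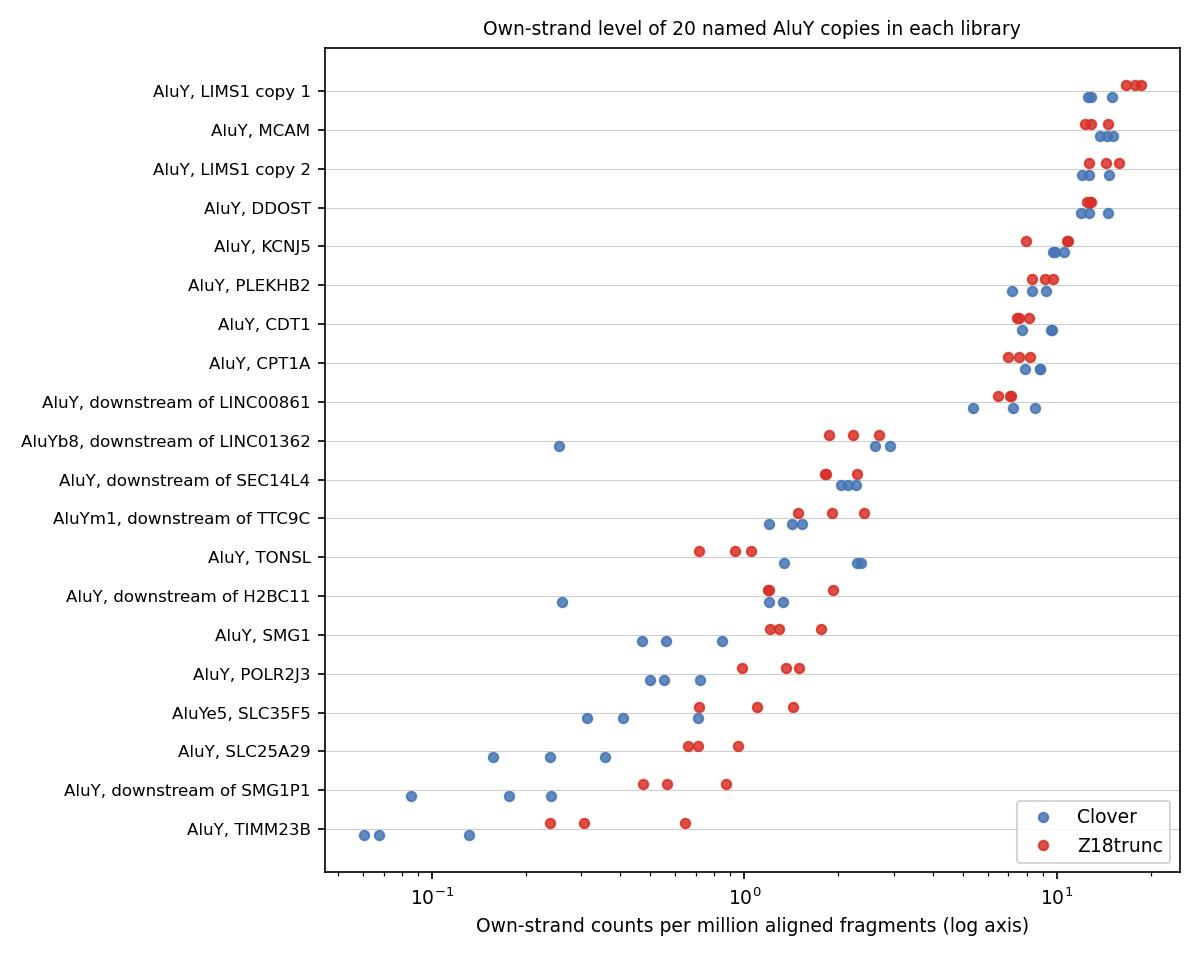
Own-strand CPM on a log axis of the 20 named AluY copies in each Clover (blue) and Z18trunc (red) library, ordered by mean level; the label gives the subfamily and the host gene, or the nearest gene upstream on the same strand. The copies in 3′ UTRs near 10 CPM overlap between groups except the first LIMS1 copy, and the other 7 copies without overlap have group means below 2 CPM.

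Read on the opposite strand, 1 of 373 tested AluY loci passed, against 0.0575% of all 12170 loci tested there. This copy lies on the unplaced contig chrUn_GL000220v1 (143417 to 143699, minus strand) within ribosomal RNA gene spans of the deposited gene tables, and was chosen after its value was seen. It had 0 counts in all 3 Clover libraries and 20.5, 55.1 and 13.1 estimated counts in Z18trunc, of which 4, 4 and 2 were unique. The Z18trunc mean was 10.3-fold a floor of 3 counts per Clover library (edgeR adjusted p of the group difference = 0.00055). This ratio fell to 5.20-fold without the second Z18trunc library, an alternative chosen after seeing the data. Of its 88.68 counts over all libraries 10 were unique, so most rest on reads shared with other places. The floor covers counting error only and not how shared reads were divided, so the ratio is not a lower bound.

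The AluY copies with the highest opposite-strand levels, also chosen by their values, lay in CCT4, a chaperonin subunit gene, and in PPFIBP1. They had 31.5 ± 1.68 and 33.5 ± 2.62 CPM, and 19.97 ± 2.67 and 20.4 ± 0.739 CPM (SD, n = 3 each), with overlap. An AluYk2 copy outside genes (chr2:110286082-110286393) had 20.2 ± 2.67 and 20.2 ± 3.33 CPM, of which a single count over all 6 libraries was unique, so that its level rests on shared reads throughout.

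Genes that act on Alu RNA were examined in 5 lists by TPM. Of the 49 genes tested, 0 passed an adjusted p of 0.05 in limma, against 0.0150% of all 13300 genes. Without adjustment, 12 had p under 0.05 with a positive change and 0 with a negative one, where all genes gave 25.6% and 2.90%. Of the Alu RNA-protein particle, all 5 tested genes had positive log2 changes with a median of 0.23, and 2 were higher at an unadjusted p under 0.05. SRP9, which with SRP14 binds the Alu fold, was 167 ± 9.77 and 203 ± 2.63 TPM, without overlap (log2 change 0.28, SE 0.07, limma adjusted p = 0.0841). SRP14 was 196 ± 6.04 and 209 ± 4.08 TPM (limma adjusted p = 0.38), and the poly(A) binding protein gene PABPC1 818 ± 46.4 and 956 ± 40.7 TPM (limma adjusted p = 0.12).

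Of 20 RNA polymerase III genes, 14 had positive changes with a median of 0.10, and 4 were higher at an unadjusted p under 0.05. The catalytic core subunit POLR3B was 2.17 ± 0.389 and 3.70 ± 0.621 TPM, without overlap (log2 change 0.57, SE 0.13, limma adjusted p = 0.0783), and POLR3F was 5.57 ± 0.427 and 7.08 ± 0.683 TPM (limma adjusted p = 0.102). The polymerase III repressor MAF1 was 220 ± 10.1 and 203 ± 3.62 TPM (log2 change -0.11, limma adjusted p = 0.328), and the transcription factor subunit GTF3C5 was 137 ± 2.51 and 140 ± 9.36 TPM. After quantile normalization the median of this list turned to -0.03, with 7 of 20 positive.

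Of 12 genes that bind or edit double-stranded RNA, all had positive changes with a median of 0.27, where 9042 of all 13300 genes were positive with a median of 0.11, and 6 were higher at an unadjusted p under 0.05, with 10 of 12 positive and a median of 0.21 after quantile normalization (all genes 6507 of 13300 and -0.01). DHX9, a helicase that unwinds paired Alu RNA, was 54.1 ± 3.52 and 76.2 ± 4.98 TPM, without overlap (log2 change 0.49, SE 0.09, limma adjusted p = 0.0773). IFIH1, a sensor of long double-stranded RNA, was 1.36 ± 0.187 and 2.09 ± 0.101 TPM (log2 change 0.39, limma adjusted p = 0.0773). The nuclear proteins NONO and ILF2 had log2 changes of 0.09 and 0.16 with overlap.

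Neither of the last lists had a gene past an unadjusted p of 0.05. Of 5 genes of splicing and decay that act on opposite-strand Alu exons, HNRNPC was 359 ± 22.1 and 388 ± 19.97 TPM and PTBP1 498 ± 33.8 and 510 ± 24.9 TPM, with overlap. U2AF1 was 259 TPM in the second Z18trunc library and 408 to 431 TPM in the other 5. Of 7 genes of CpG methylation and heterochromatin, DNMT1 was 73.8 ± 9.0 and 81.4 ± 1.68 TPM and UHRF1 72.6 ± 9.68 and 72.2 ± 3.17 TPM. HELLS was 9.22 ± 0.533 and 11.5 ± 2.34 TPM, and SETDB1 was 11.3 ± 1.14 and 13.3 ± 1.20 TPM, without overlap (limma adjusted p = 0.211).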

How the data were processed

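Polyadenylated RNA of 3 Clover and 3 Z18trunc SW480 libraries was analysed, grouped by sample title. The authors trimmed reads with cutadapt 4.6 and ran SQuIRE on hg38. The deposited TE tables hold uniquely mapped counts per locus and strand, not normalized, and estimated counts (expected counts) in which an expectation-maximization step divided shared fragments. The deposited FPKM values were not used. The gene tables deposited by the authors hold TPM values. P-values set the difference between groups against the spread between libraries.

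Rounded estimated counts entered edgeR (version 4.0.16, R 4.3.3), whose quasi-likelihood test was run on each locus and each subfamily sum that reached 30 counts. The aligned fragments served as library sizes, and Benjamini-Hochberg adjustment covered every DNA, LINE, LTR and SINE feature tested. For genes whose TPM averaged 1 or more, limma 3.58.1 was run on log2(TPM + 1), a scale that understates changes of low genes. Single sums were compared by exact two-sided permutation. Gene spans came from the deposited tables, exons and UTRs (covering at least 50% of the copy) from GENCODE 44 with bedtools 2.31.1. Fits were tested on simulated data. The planted changes were larger than most seen here and came without a shift common to all features. That test therefore does not show how well small changes were found. Libraries of a group differed by more than counting noise (chi-square per degree of freedom 1.62 to 1.91). Alternatives were uniquely mapped or opposite-strand counts, other scalings and filters, DESeq2 1.42.0, a replicate block and leaving out each library.

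Members, gene lists and tests were chosen with earlier results of these data known. Named loci were those called and the 8 tested with the smallest p. By own-strand CPM, the 8 most abundant and the 5 most abundant outside gene spans were also named. Named subfamilies were the 5 most abundant, AluYa5, AluYb8 and AluYb9. Named genes were the 2 most abundant and 2 with the smallest p of each list. Some items are not reported here, and listed genes that the rule did not name are given as counts.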

Additional observations from a re-analysis of the deposited data

How the results depend on the processing

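With 3 libraries a group, exact tests of sums could not go below p = 0.1, and reads without molecular identifiers limit floors to counting error. Relative to all TE counts of both strands, log2 changes turned to -0.0655 for the own-strand sum, -0.0822 outside genes, -0.0569 in same-strand genes and -0.136 in other-strand genes. Here the groups by place were set by gene spans alone, without exons. Copies outside genes were then 117 CPM in Clover and 126 CPM in Z18trunc on average. AluY against other SINEs was -0.00902 with uniquely mapped counts and ran from -0.0273 to 0.0289 leaving out 1 library. The unique share difference then ran from -0.642 to 1.31 percentage points. Loci called were 1 on the opposite strand and 0 to 1 leaving out 1 library, and subfamilies called were 1 on the opposite strand. The causes were not tested. Replicate numbers did not pair the libraries (correlations of deviations over loci -0.00702, -0.0155 and -0.0387). With the replicate block the own-strand sum gave 0.115 (p = 0.5 by exact sign flips of 3 pairs, which cannot go below 0.25). In edgeR 0 AluY loci were then called (21 of 345 at an unadjusted p under 0.05, against 1118 of all 12453 loci). Own-strand AluY loci, AluY subfamilies and listed genes called stayed at 0 with the block. The block was not run on opposite-strand counts.

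With TMM scaling and DESeq2 in that order, the second LIMS1 copy was -0.0529 and -0.0507, PLEKHB2 -0.0352 and -0.0319, AluY -0.0851 and -0.0898, AluYm1 -0.0251 and -0.0314, AluYh3 -0.112 and -0.118, and AluYa5 -0.155 and -0.163. Unique counts gave 0.00652 for DDOST, 0.0679 for KCNJ5 and -0.0459 for the AluYb8 copy downstream of LINC01362. Leaving out 1 library gave ranges of -0.101 to 0.0472 for DDOST, -0.0995 to 0.113 for KCNJ5, -0.189 to 0.136 for the outside copy on chromosome 8 and -0.299 to 0.594 for the LINC01362 copy. Ranges were -0.0938 to 0.0273 for AluYb8, -0.108 to 0.21 for AluYa5, -0.0225 to 0.0632 for GTF3C5, -0.0236 to 0.0715 for PTBP1 and -0.107 to 0.0836 for UHRF1.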
